A study of Macaca mulatta with 8 samples.

Results

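The voltage-gated potassium channel (Kv) alpha subunits were taken as every gene whose symbol is KCN followed by A, B, C, D, F, G, H, Q, S or V and a number. The count matrix held 39 such genes among 21748, and no KCNF gene was among them. The rule used symbols only, not measured values, though it was chosen with earlier results of these data known. Genes that reached 10 counts per 1000000 UMIs (CPM) in at least 1 cell class count as described members, of which there were 25. The other 14 stayed below that level in every class.

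Kv channels open when the membrane is depolarised and let potassium leave the cell, which ends the action potential and sets how soon the next one can follow. Alpha subunits assemble around the pore. Members of the KCNA, KCNB, KCNC and KCND subfamilies form delayed rectifiers and transient A-type channels. KCNG, KCNS and KCNV subunits are electrically silent alone and modify the KCNB subunits. Neuronal KCNQ subunits carry the M-current that neuromodulators suppress, and KCNH subunits form the EAG, ERG and ELK channels. In the hippocampus, KCND2 is known as the A-type subunit of pyramidal dendrites, and KCNC1 and KCNC2 as the subunits that let interneurons fire fast.

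Nuclei from frozen brain of male rhesus macaques were counted with droplet-based 3' chemistry (10x Genomics v3), in which a unique molecular identifier (UMI) marks each captured RNA molecule. Control tissue was a pool of 2 animals and sevoflurane tissue came from 1 animal, and each was split into 4 samples, 8 in all. Sevoflurane, an inhaled anaesthetic, was given at about 2.5 to 3% for 4 h at about postnatal day 7 and again at 14 and 28 days, worded so that ages and intervals cannot be told apart. The labels give the tissue as hippocampus, although the growth protocol speaks of the amygdala. No strain, genotype or age at sampling is given in the sources used here, and splits of 1 pool are not separate animals.

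The matrix joined all libraries, numbered 1 to 8 by the suffix of their barcodes, and nothing used here ties a suffix to a sample. Sevoflurane was therefore not compared with control, the matrix counts as 1 sample, and no p-value was computed. Filters and removal of 3576 presumed doublets left 54644 of 59749 nuclei. Libraries held 35806547 to 47007082 UMIs, and 429 barcode sequences occurred in more than 1 library. Libraries 1 to 4 stood apart from libraries 5 to 8: their median was 3036 to 3265 UMIs per kept nucleus against 5859.5 to 6051, and of 46 clusters with at least 50 nuclei, 11 drew at least 95% of their nuclei from libraries 1 to 4 and 13 from libraries 5 to 8. Library values, from libraries with at least 50 nuclei of the class, are therefore given beside the levels the results turn on, and calls were also made inside each set of 4 libraries where it held enough nuclei.

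Clusters were named from marker genes, with the members left out of the clustering, and gave 19 classes. Each name is short for "like" that type. The excitatory classes are dentate granule (3106 nuclei), CA-field pyramidal (6524), FOXP2 (1941) and other excitatory (7910). The inhibitory classes are VIP/CALB2 (1781), RELN/ADARB2 (895), CCK (855), LAMP5/LHX6 (635), SST (1525) and LHX6 (1382). Immature neurons (2094) and 8 non-neuronal classes complete them, and 2894 nuclei stayed unnamed. The LHX6 class lacked the parvalbumin gene PVALB at a useful level (4.66 CPM) although the class scored highest for the markers of such interneurons, and it is called LHX6 for that reason. PROX1, a granule marker that is also on the VIP/CALB2 list, stood at 267 CPM in the granule class and at 422 CPM in the immature class. That 1 gene does not place the immature class in the granule lineage. Pyramidal nuclei of libraries 1 to 4 came from 2 clusters and those of libraries 5 to 8 from 4 others. Granule nuclei and astrocytes likewise came from 1 cluster in each set of libraries.

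CPM is a share of a class's own UMIs, so it shows how much of a nucleus's RNA a gene takes, not how many molecules it holds. The mean total per nucleus ran from 1665 UMIs in microglia to 10501 in pyramidal neurons. Levels are compared for 1 gene across classes. Across genes a fixed cut of 10 CPM applies, and a gene below it is not read as absent. Intervals in parentheses are 95% intervals, exact Poisson for a level and exact conditional binomial for a fold. For a share of nuclei they are exact binomial over nuclei, which are not separate animals. All of them cover counting error only.

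Every Kv subfamily except KCNV had a member at 10 CPM or more. Of the KCNH genes 7 of 8 reached that level, as did 2 of 3 KCND, 3 of 4 KCNG, 2 of 8 KCNA and 1 of 3 KCNS genes. The members below it in every class included KCNA1, KCNA2, KCNA5, KCNA6, KCNA7, KCNA10, KCND1, KCNG4, KCNH6, KCNS1, KCNS2, KCNV1 and KCNV2. KCNA7, KCNA10 and KCNH6 had no UMI in the kept nuclei, and the highest level of the 14 was 5.09 CPM, for KCNV1 in other excitatory neurons. Of all genes, 58.7% reached 10 CPM in some class. The members' CPM added up to 8405 in LHX6 interneurons and 8244 in CCK interneurons, and to 1208 in endothelial cells, the lowest of the 19 classes.

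The described members did not share 1 site of highest level. Of the 25, 9 were highest in an excitatory class, 8 in an inhibitory class, 1 in immature neurons and 7 in a non-neuronal class. No such count over all genes stands beside it, so the spread is not read as particular to the members. The non-neuronal group included KCNB2 in newly formed oligodendrocytes, KCND2 and KCNH5 in oligodendrocyte precursors, KCNH8 in oligodendrocytes, KCNQ3 in microglia, and KCNH2 in ependymal cells, the ciliated cells that line the ventricles. Some leads were narrow. KCNQ3 in microglia was 1.07 times other excitatory neurons, and higher in only 4 of 6 libraries. KCNH2 in ependymal cells was 1.34 times LHX6 interneurons (0.98 to 1.81), and higher in 8 of 8 libraries.

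**Figure D1:**
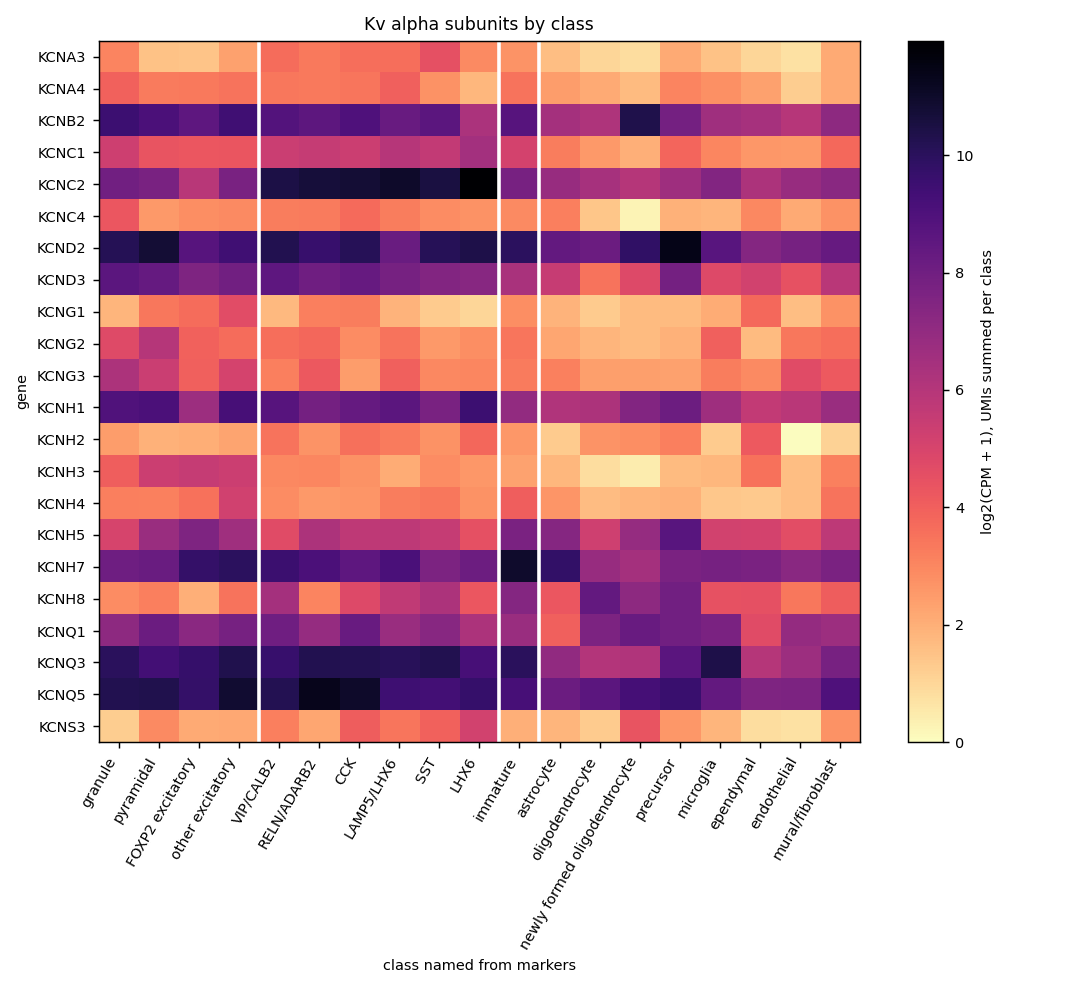
Heat map of 22 described members (rows) over the 19 classes (columns, excitatory, inhibitory, immature and non-neuronal from left to right), coloured by log2(CPM + 1) of UMIs summed per class. KCNC2 is darkest in LHX6 interneurons, KCND2 in precursors, KCNB2 in newly formed oligodendrocytes and KCNH7 in immature neurons.

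Neurons and non-neuronal nuclei were compared to place each member in 1 compartment. A gene counted as measured at 10 CPM in either side, and was called higher where the fold was at least 2 and every library with at least 50 nuclei on both sides agreed in direction. Of 19 measured members, 14 were higher in neurons, beside 11.8% of all measured genes, and 1 was higher in non-neuronal nuclei, beside 18.7%. The median log2 ratio was 2.06 for the members and -0.22 for all measured genes. KCNH3, an ELK channel of the forebrain, stood at 30.3 CPM in neurons and 2.36 CPM in non-neuronal nuclei, 12.9-fold higher in neurons (10.9 to 15.3). Its log2 ratio of 3.69 was 2.85 in libraries 5 to 8 alone and 4.65 with 5% free RNA taken off. The silent subunit KCNG2 was 6.87-fold higher (6.06 to 7.81), and KCNC2 was 5.65-fold higher (5.51 to 5.80). In all 8 libraries these 3 were higher in neurons, with log2 ratios from 1.89 for KCNG2 to 4.00 for KCNH3.

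KCNH8, the other ELK channel with a wide range, went the opposite way. It stood at 18.8 CPM in neurons and 157 CPM in non-neuronal nuclei, 8.38-fold higher in the latter (8.08 to 8.69), with library log2 ratios of neurons over non-neuronal nuclei from -3.40 to -1.62. The pooled log2 ratio of -3.07 was -1.74 in libraries 5 to 8 alone. This was not a trait of all non-neuronal classes. KCNH8 had 327 CPM in oligodendrocytes, 245 CPM in precursors and 139 CPM in newly formed oligodendrocytes. Astrocytes (18.5 CPM), endothelial (9.49 CPM) and mural or fibroblast nuclei (15.8 CPM) did not exceed the neuron value, and immature neurons had 169 CPM. The members called in neither direction were KCND2 (1105 and 749 CPM), KCNH7 (601 and 353 CPM), KCNQ1 (215 and 151 CPM) and KCNH5 (92.4 and 139 CPM). All 4 kept 1 direction in every library and missed the fold. Each of them had a non-neuronal class among those with its higher levels, as described below.

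All described KCNG subunits leaned to excitatory neurons, and the fast delayed rectifiers KCNC1 and KCNC2 to inhibitory neurons. Of 21 measured members, 6 were higher in excitatory neurons, beside 6.16% of all measured genes, and 5 in inhibitory neurons, beside 6.43%. The 6 were KCNG1, KCNG2, KCNG3, KCNH3, KCNH4 and KCNH5, and the 5 were KCNA3, KCNC1, KCNC2, KCNH8 and KCNS3. The members' median log2 ratio was 0.43 and that of all measured genes -0.11. KCNH3 had 36.9 CPM in excitatory and 5.85 CPM in inhibitory neurons, a 6.30-fold difference (5.55 to 7.18), with library log2 ratios from 1.76 to 3.19. KCNG3 was 4.50-fold higher in excitatory neurons (4.06 to 5.01), KCNG1 4.37-fold (3.69 to 5.22) and KCNG2 4.29-fold (3.84 to 4.80). KCNG products join KCNB channels, and these 3 genes were higher in excitatory neurons in 8 of 8 libraries. With libraries 1 to 4 alone, KCNG1 kept its direction (log2 ratio 1.63) but no longer met the rule.

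KCNC2 showed the widest inhibitory bias of the measured members. It stood at 201 CPM in excitatory neurons and 2110 CPM in inhibitory neurons, 10.5-fold higher (10.4 to 10.6), and library log2 ratios of excitatory over inhibitory ran from -4.33 to -3.06. Its relative KCNC1 was 2.59-fold higher in inhibitory neurons, at 21.6 and 55.9 CPM. KCNH8 was 5.92-fold higher there (5.53 to 6.33), KCNS3, a silent partner of KCNB subunits, 3.75-fold (3.38 to 4.16), and KCNA3, a delayed rectifier also known from lymphocytes, 3.69-fold (3.28 to 4.15). These 3 had 48.1, 16.4 and 12.6 CPM in inhibitory neurons. KCNB2, KCND2, KCND3, KCNH1, KCNH7, KCNQ1, KCNQ3 and KCNQ5 were among those called in neither direction, and of these 8 KCNQ3 lay closest to equal, at 941 CPM in excitatory and 975 CPM in inhibitory neurons.

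**Figure D2:**
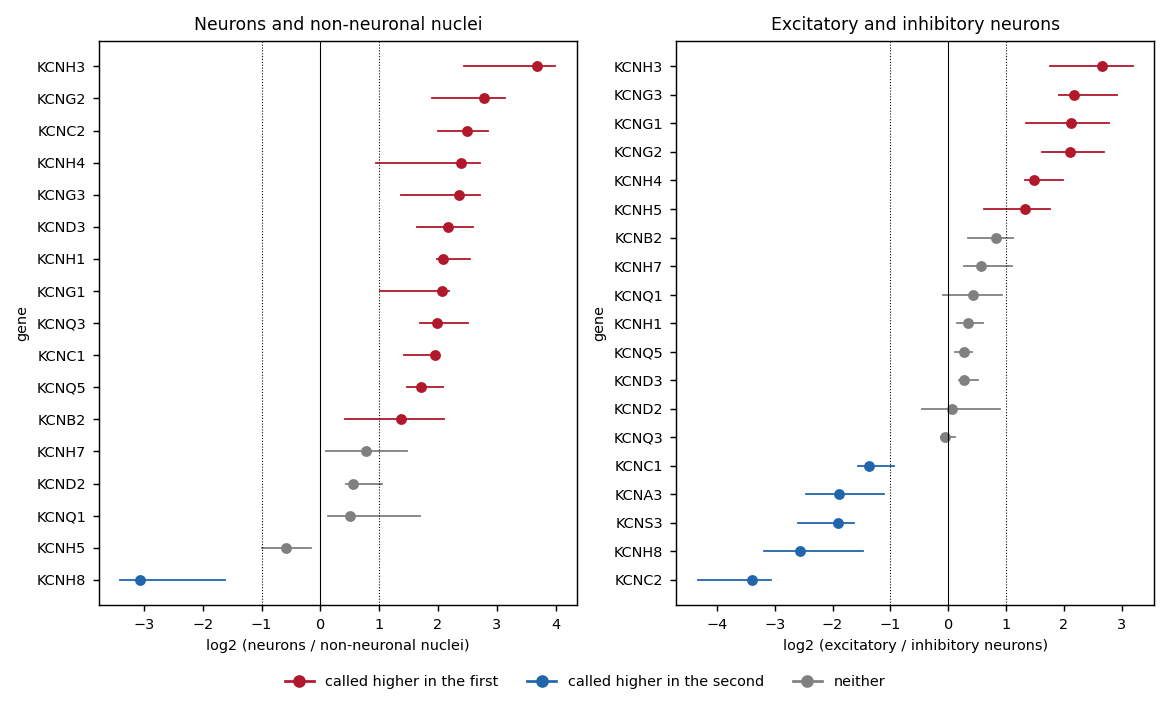
Log2 ratios of measured members, neurons over non-neuronal nuclei (left, 17 genes) and excitatory over inhibitory neurons (right, 19 genes). Points are ratios of summed UMIs, lines run from the lowest to the highest library, dotted lines mark 2-fold, and colours mark calls. KCNH8 is the 1 member called higher in non-neuronal nuclei, and KCNC2 has the lowest excitatory over inhibitory ratio.

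Interneuron subtypes were each compared with the other inhibitory neurons. Over 108 measured pairs of member and subtype, 10 were higher in the subtype, beside 2.57% over all genes, and 12 were lower, beside 4.14%. The median log2 ratio over the pairs was -0.02, against -0.01 for all genes. LHX6 interneurons accounted for 8 of the 22 calls, 3 higher and 5 lower of 17 measured, beside 2.67% and 4.50% of all genes measured in that class. CCK interneurons had 1 higher and 0 lower of 18, beside 1.87% and 3.09%. LAMP5/LHX6 interneurons had 1 higher and 1 lower of 19, beside 2.61% and 4.17%.

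In LHX6 interneurons KCNC2 took 3949 CPM, with a lowest, median and highest library of 3619, 3886 and 4572 CPM. The next class was LAMP5/LHX6 at 2067 CPM, where the highest of 5 libraries had 2239 CPM, and SST interneurons had 1466 CPM. No LHX6 library overlapped any library of another interneuron class. Against all other inhibitory neurons the fold was 2.51 (2.48 to 2.55). At a common depth of 1000 UMIs per nucleus, 93.6% of LHX6 nuclei held a KCNC2 UMI (92.2% to 94.9%), compared with 61.0% of SST, 18.6% of pyramidal and 10.5% of astrocyte nuclei. Without thinning the shares were 99.5%, 94.6%, 66.8% and 21.3%, at median depths of 6545.5, 6276, 9856 and 2122 UMIs. Free RNA can put a UMI of an abundant gene into any droplet. FOXP2 excitatory nuclei, at 5.33% after thinning, lay below the astrocyte share, so no presence of KCNC2 is read from it.

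KCNC1 followed the same order at its top, with 89.8 CPM in LHX6 interneurons (54.1, 94.6 and 107 CPM as lowest, median and highest library) and 61.6 CPM in LAMP5/LHX6. In granule neurons it had 38.2 CPM, and in the other 3 excitatory classes 18.4 to 19.7 CPM. KCNS3 was 3.12-fold higher in LHX6 interneurons than in other inhibitory neurons (2.68 to 3.63), at 34.6 CPM, and the lowest LHX6 library (29.8 CPM) lay above the highest library of every other interneuron class (25.6 CPM, in CCK). The LHX6 class joins 2 clusters, and KCNS3 had 40.8 CPM in cluster 18 but 9.78 CPM, from 19 UMIs, in the smaller cluster 39. KCNH1, an EAG channel, was 2.37-fold higher (2.30 to 2.45), at 732 CPM. KCNB2, a delayed rectifier, was the member lowered most in this class, 5.32-fold (4.94 to 5.73), with 77.8 CPM against 299 to 506 CPM in the 5 other interneuron classes. Its LHX6 libraries (35.9 to 109 CPM) did not reach the lowest library of any other neuron class (208 CPM).

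The remaining subtypes carried other members. KCNQ5, a subunit of M-channels, was 2.47-fold higher in RELN/ADARB2 interneurons (2.42 to 2.52), at 2539 CPM, with libraries from 2373 to 2668 CPM. CCK interneurons came next at 2055 CPM, and other excitatory neurons had 1857 CPM. At clustering resolution 0.5 the CCK class was the highest. In RELN/ADARB2 interneurons KCNH8 was 7.13-fold lower (5.11 to 10.3), at 7.45 CPM from 35 UMIs. Its log2 ratio was -1.95 in libraries 1 to 4 alone and -3.49 in libraries 5 to 8 alone. KCNS3 was 4.98-fold lower in RELN/ADARB2 interneurons (3.09 to 8.60), from 17 UMIs. KCNA3 had its highest level in SST interneurons, 21.8 CPM with libraries from 17.2 to 27.0 CPM, while KCNH1, KCNH7 and KCNQ5 were more than 2-fold lower there. KCNH7 and KCNH8 were 2.21-fold and 2.24-fold higher in VIP/CALB2 interneurons. KCNQ1, better known from heart and inner ear, was 2.05-fold higher in CCK interneurons, at 303 CPM. KCND2 was 3.97-fold lower in LAMP5/LHX6 interneurons (3.74 to 4.23), at 287 CPM against 1139 CPM. In that class KCNA4, which forms inactivating axonal channels, was 2.19-fold higher, at 14.6 CPM. The CCK class was named from 6 markers of its list, of which CNR1 and ADARB2 (1823 and 11581 CPM) were among its 10 leading genes. ADARB2 is also on the RELN/ADARB2 and VIP/CALB2 lists. RELN, a marker of the RELN/ADARB2 class, was among the leading genes of the CCK class too.

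**Figure D3:**
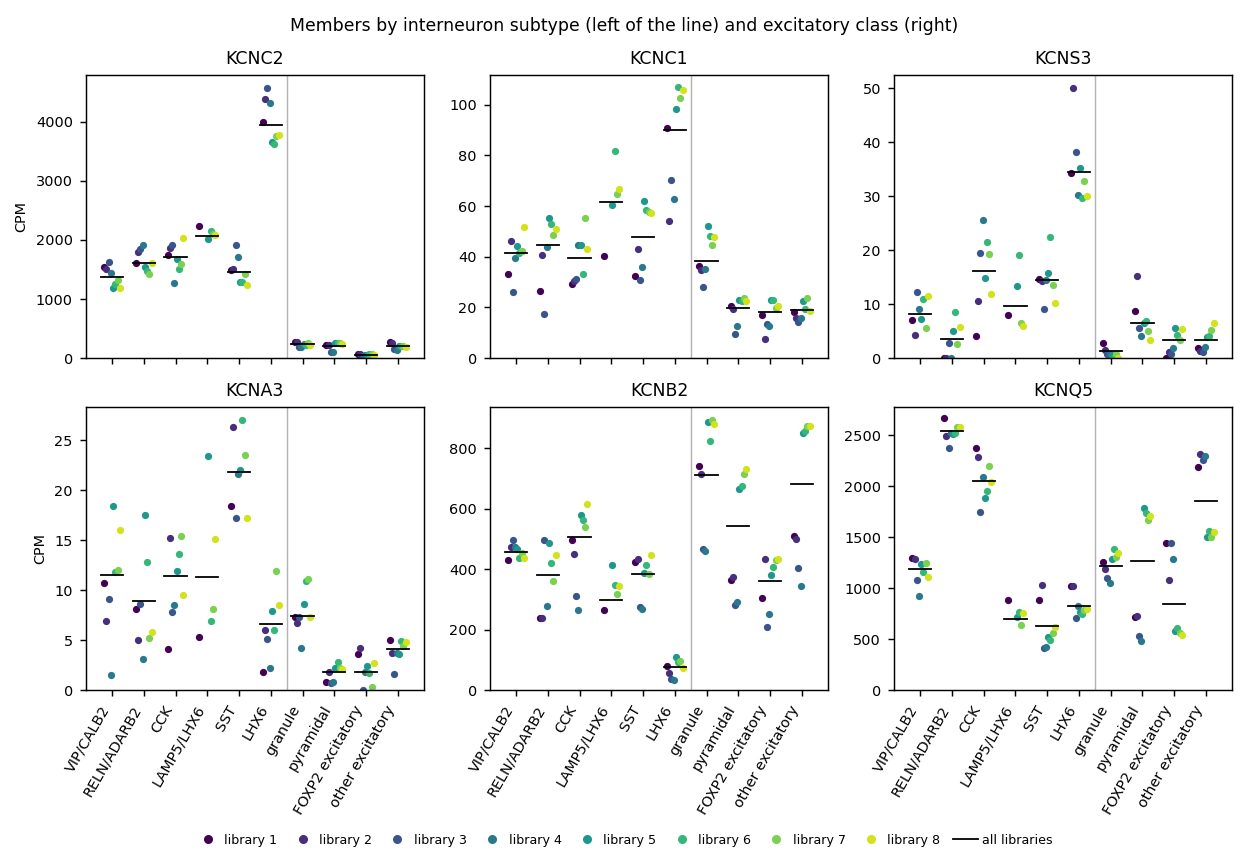
CPM of 6 members in the 6 interneuron classes and 4 excitatory classes, 1 point per library with at least 50 nuclei and a line for all libraries together. The LHX6 points of KCNC2 (3619 to 4572 CPM) and KCNS3 (29.8 to 50.1 CPM) sit above those of the other interneuron classes, and those of KCNB2 (35.9 to 109 CPM) below.

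Granule and pyramidal neurons, the excitatory types of the dentate gyrus and the CA fields, were compared next. Of 18 measured members, 1 (5.56%) was higher in granule neurons, beside 4.82% of all measured genes, and 3 (16.7%) in pyramidal neurons, beside 5.3%. The median log2 ratio was 0.08 against 0.03 for all genes. The split depended on the libraries: it was 4 in granule and 2 in pyramidal neurons with libraries 1 to 4 alone, 2 and 5 with libraries 5 to 8 alone, and 2 and 3 with libraries weighted equally. Shares over all genes under these settings are not given here. KCNC4, a rapidly inactivating KCNC subunit, had 18.2 CPM in granule and 4.85 CPM in pyramidal neurons, 3.75-fold higher (3.23 to 4.35), with library log2 ratios from 1.97 to 3.08. Its pooled log2 ratio of 1.91 was 2.91 in libraries 1 to 4 alone. KCNG2 had 25.8 and 63.2 CPM, 2.45-fold higher in pyramidal neurons (2.24 to 2.68), and its granule libraries (20.4 to 29.3 CPM) lay below its pyramidal libraries (56.5 to 69.9 CPM). KCNH5, an EAG channel, was 3.42-fold higher in pyramidal neurons (3.16 to 3.70), at 31.7 and 108 CPM, with granule libraries from 9.52 to 45.3 CPM and pyramidal libraries from 58.7 to 142 CPM, and KCNQ1 2.04-fold (1.96 to 2.12), at 139 and 283 CPM. Both of the last calls were fragile. The KCNH5 log2 ratio of -1.77 became -0.84 without pyramidal clusters 29 and 31, whose leading genes hold a marker of another class and none of their own, and -0.92 in libraries 1 to 4, but -3.29 in libraries 5 to 8. That of KCNQ1, -1.03, became -0.68 in libraries 1 to 4, -1.83 in libraries 5 to 8, -0.97 to -0.96 when library 5, 6, 7 or 8 was left out, -0.96 at clustering resolution 2.0 and -0.99 with doublets kept.

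KCND2, the dendritic A-type subunit, had 1721 CPM in pyramidal and 1149 CPM in granule neurons, which missed the fold although pyramidal neurons were higher in 8 of 8 libraries. KCNG3 (73.4 CPM in granule, 40.6 CPM in pyramidal) and KCNC1 (38.2 and 19.7 CPM) leaned to granule neurons in 8 of 8 libraries and also missed it. KCNH3 had 15.6 and 39.4 CPM, past the fold, but 2 of 8 libraries went the other way. Among the excitatory classes KCNH4, an ELK channel, was highest in other excitatory neurons at 35.6 CPM, and so was the silent subunit KCNG1 at 24.1 CPM. KCND3, a second A-type subunit, was highest in granule neurons at 386 CPM, next to VIP/CALB2 interneurons at 366 CPM, whose libraries (229 to 472 CPM) overlapped the granule libraries (307 to 510 CPM).

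Immature neurons, a PROX1-rich class, were compared with granule neurons. Levels and folds pool all 8 libraries, while the direction was checked in libraries 1 to 4, the 4 with at least 50 nuclei of both classes. Of 21 measured members, 4 were higher in immature neurons, beside 17.2% of all measured genes, and 7 in granule neurons, beside 8.11%. The members' median log2 ratio was -0.32 and that of all measured genes 0.28. The ERG channel KCNH7 had 1916, 1974, 2078 and 2038 CPM in immature neurons of libraries 1 to 4, where its highest granule library had 333 CPM. Its fold was 7.55 (7.30 to 7.81), and immature neurons were the class with its highest level, followed by other excitatory neurons at 995 CPM. KCNH8 was 26.8-fold higher in immature neurons (22.3 to 32.4), at 169 and 6.30 CPM, and KCNH5 6.49-fold (5.86 to 7.18), at 206 and 31.7 CPM. With both classes taken from libraries 1 to 4 alone, the log2 ratios were 3.02 for KCNH7, 4.64 for KCNH8 and 2.44 for KCNH5.

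The members lower in immature than in granule neurons were KCNC4, KCND3, KCNG2, KCNG3, KCNH1, KCNH3 and KCNQ5. KCNG3 was 8.39-fold lower, at 8.75 CPM from 36 UMIs. KCND3 was 4.85-fold lower (4.34 to 5.43), at 79.7 CPM, KCNH3 4.00-fold (2.43 to 7.08), from 16 UMIs, and KCNH1 3.90-fold (3.57 to 4.27), at 124 CPM. KCNQ3 was called in neither direction, at 1029 and 1038 CPM over all libraries. Its granule level was 1066 to 1140 CPM in libraries 1 to 4 and 842 to 929 CPM in libraries 5 to 8, and immature neurons of libraries 1 to 4 had 1007 to 1135 CPM, with log2 ratios of -0.18 to 0.03. Of the A-type subunits KCND3 was called, and KCND2, at 987 and 1149 CPM, was not.

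Glial and vascular classes were each compared with the other non-neuronal nuclei. Over 118 measured pairs, 21 were higher in the class, beside 9.74% over all genes, and 37 lower, beside 14.6%, with a median log2 ratio of -0.53 against -0.11. Precursors had 8 of the 21 higher calls and 0 lower, of 14 members measured, beside 6.01% and 11.8% of all genes measured in that class. Endothelial cells had 1 higher and 9 lower of 15, beside 12.9% and 17.4%. Astrocytes had 1 higher and 5 lower of 13, beside 8.81% and 13.2%.

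Microglia, the immune cells of the brain, carried KCNQ3 at 1328 CPM, 9.08-fold above the other non-neuronal nuclei (8.79 to 9.38). The 6 libraries with at least 50 microglia had 1252, 1211, 1320, 1246, 3119 and 2806 CPM, the last 2 being libraries 5 and 7 with 55 and 54 nuclei. The pooled log2 ratio of 3.18 was 4.00 in libraries 5 to 8 alone. The lowest of them stood above the highest library of any other non-neuronal class (450 CPM, in precursors). At 1000 UMIs per nucleus, 62.3% of microglia held a KCNQ3 UMI (60.4% to 64.1%), against 11.1% of astrocytes and 7.07% of oligodendrocytes. Unthinned shares were 73.3%, 22.2% and 17.2% at median depths of 1586, 2122 and 2796 UMIs. The 7 neuron markers in the matrix summed to 2350 CPM in microglia (libraries 1898 to 3073 CPM, 6 of 7 markers at 10 CPM), to 2785 CPM in precursors and 1573 CPM in astrocytes, and to 3497 to 16257 CPM in the neuron classes. Under TMM scaling other excitatory neurons, at 1238 CPM before scaling, became the class with the highest KCNQ3. KCNG2 was the other member higher in microglia, 4.71-fold, at 15.1 CPM.

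KCNH7 set astrocytes apart from the rest of the glia. It had 883 CPM there (642, 789 and 1094 CPM as lowest, median and highest library), 5.71-fold above the other non-neuronal nuclei, whose classes ran from 87.7 to 227 CPM. KCNQ1 (15.1 CPM, 13.4-fold lower, 11.8 to 15.2, log2 ratio -3.74 and -2.83 in libraries 5 to 8 alone) and KCNH8 (18.5 CPM, 11.3-fold lower, 10.1 to 12.7) were low in the same class. KCNH8 was also low in endothelial (9.49 CPM from 14 UMIs, 17.0-fold lower, log2 ratio -4.08 and -1.77 in libraries 5 to 8 alone) and mural or fibroblast nuclei (15.8 CPM from 14 UMIs, 10.1-fold lower, 6.02 to 18.5). Endothelial cells held KCNG3 at 25.1 CPM, 4.24-fold above the other non-neuronal nuclei (2.94 to 5.96), from 37 UMIs, with 18.1 to 23.3 CPM in the 3 libraries with enough nuclei. The neuron markers summed to 1230 CPM in endothelial cells, and both endothelial clusters had a median doublet score of 0.42, the highest of any named cluster beside 1 of mural or fibroblast nuclei. The part of either in this value was not tested. Ependymal cells held KCNH2, the ERG channel of the heart, at 17.0 CPM (4.00-fold higher) and KCNG1 at 12.7 CPM (5.63-fold). Ependymal cells had the highest neuron marker sum of the non-neuronal classes, 6083 CPM, and its part in these values was not tested.

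**Figure D4:**
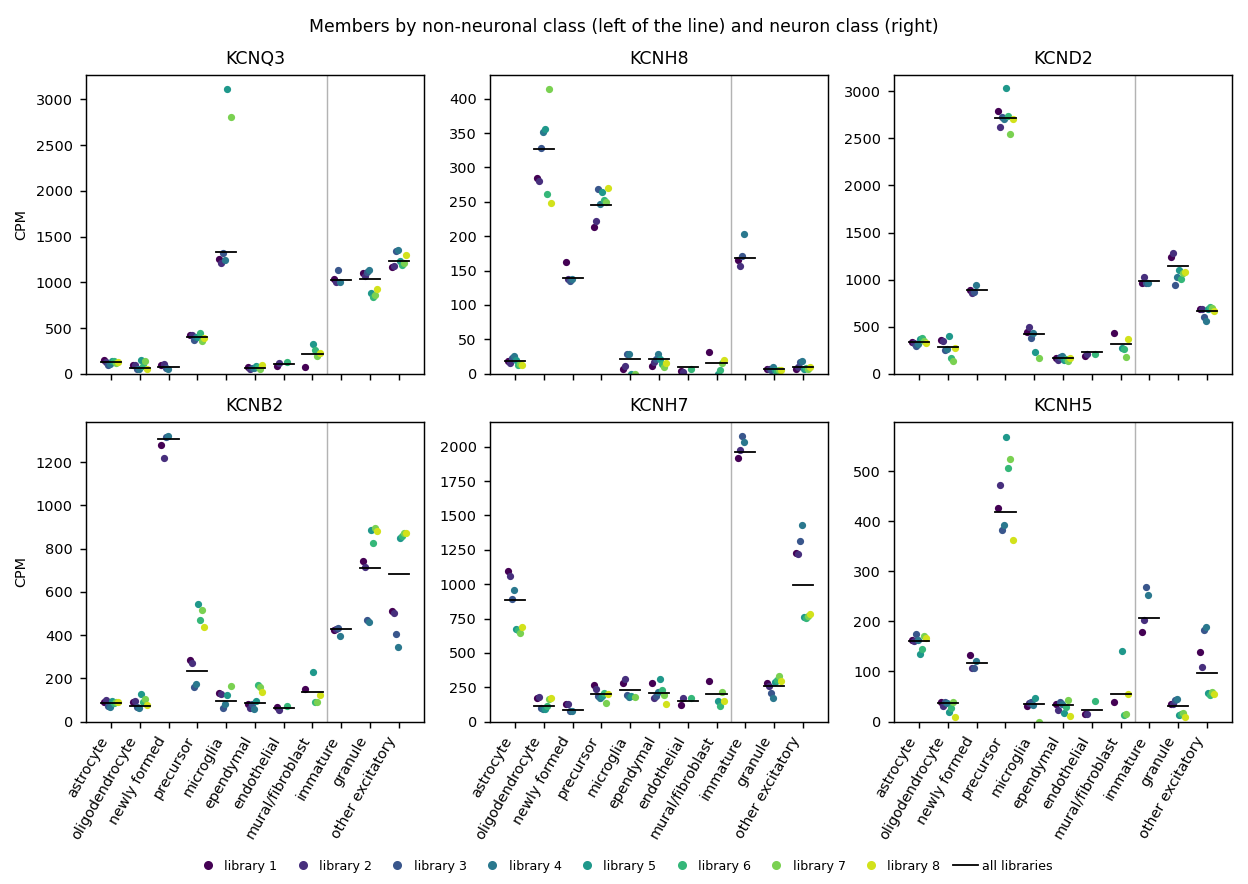
CPM of 6 members in the 8 non-neuronal classes and 3 neuron classes, 1 point per library with at least 50 nuclei and a line for all libraries together. KCNQ3 is high in microglia with libraries 5 and 7 highest (3119 and 2806 CPM), KCNB2 in newly formed oligodendrocytes (1221 to 1321 CPM) and KCNH7 in immature neurons and astrocytes.

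Along the oligodendrocyte lineage, from precursors through newly formed to mature oligodendrocytes, most measured members were lower at the mature end. Of 14 measured members, 8 were higher in precursors, beside 12.3% of all measured genes, and 0 in oligodendrocytes, beside 8.59%. No member was called higher in oligodendrocytes under any of the 19 alternative settings applied to this comparison. The members' median log2 ratio of oligodendrocytes over precursors was -1.79, and that of all measured genes -0.08. Both A-type subunits were among the 8. KCND2 had 2718 CPM in precursors (2543, 2719 and 3034 CPM as lowest, median and highest library) and 280 CPM in oligodendrocytes, 9.70-fold lower (9.41 to 9.99), and no library of the 2 classes overlapped. KCND3 had 235 CPM in precursors (libraries 173 to 275 CPM) and 10.3 CPM in oligodendrocytes (7.54 to 34.5 CPM), 22.8-fold lower (19.7 to 26.6). The size of that step varied: library log2 ratios ran from -4.92 to -2.53, and the pooled value of -4.51 was -2.99 in libraries 5 to 8 alone, -3.61 with libraries weighted equally, -3.64 with doublets kept and -7.54 with 5% free RNA taken off. KCNH5 was 11.3-fold lower (10.4 to 12.3), at 417 and 37.0 CPM, with libraries from 362 to 569 CPM in precursors and from 8.29 to 39.8 CPM in oligodendrocytes. Its log2 ratio of -3.49 was -4.34 in libraries 5 to 8 alone, where oligodendrocytes held 1 to 5 KCNH5 UMIs per library. KCNB2, KCNH1 and KCNQ3 were also among the 8.

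KCND2 in precursors was its highest level of all 19 classes, 1.58 times that of pyramidal neurons, though only in 6 of 8 libraries. Pyramidal libraries 3 and 4 had 3040 and 2965 CPM and all other pyramidal libraries 1096 to 1999 CPM. KCNH5 was also highest in precursors, 2.03 times the level of immature neurons. The EAG channel KCNH1 had 270 CPM in precursors, compared with 69.4 to 174 CPM in astrocytes, oligodendrocytes, newly formed oligodendrocytes and microglia.

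KCNB2 did not follow the lineage in order. It had 235 CPM in precursors, 1307 CPM in newly formed oligodendrocytes and 71.1 CPM in oligodendrocytes. The 4 libraries with enough newly formed oligodendrocytes had 1281, 1221, 1315 and 1321 CPM, and the highest library of any other class had 894 CPM, in granule neurons. The other non-neuronal nuclei together had 109 CPM. The newly formed class joins 2 clusters that differed in KCNB2, cluster 17 (1127 nuclei) at 1543 CPM and cluster 42 (172 nuclei) at 120 CPM. Of single clusters, pyramidal cluster 31 had more, 1577 CPM. Newly formed oligodendrocytes stood at 5.56 times the level of precursors (5.30 to 5.82) and 18.4 times that of oligodendrocytes (17.3 to 19.5). At 1000 UMIs per nucleus, 50.6% of them held a KCNB2 UMI (47.8% to 53.3%), against 18.6% of precursors and 8.41% of astrocytes, and 69.7%, 35.4% and 16.2% before thinning, at median depths of 3769, 2643.5 and 2122 UMIs. The neuron markers summed to 1339 CPM in newly formed oligodendrocytes, below the 2785 CPM of precursors. KCNS3, the silent subunit that pairs with KCNB channels, took the same order, at 4.98, 19.4 and 1.43 CPM, and was 7.69-fold higher in newly formed oligodendrocytes than in the other non-neuronal nuclei (5.91 to 9.99). KCNQ1 was highest there as well within the lineage, at 299 CPM against 251 and 197 CPM, a smaller step.

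KCNH8 was the member with its highest level in mature oligodendrocytes, 327 CPM (249, 307 and 414 CPM as lowest, median and highest library). It was lower in newly formed oligodendrocytes, 139 CPM, than in precursors, 245 CPM, in all 4 libraries compared. Excitatory classes had 2.97 to 10.1 CPM of KCNH8. KCNH8 in oligodendrocytes and precursors differed by 1.33-fold, in 7 of 8 libraries, and was not called.

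**Figure D5:**
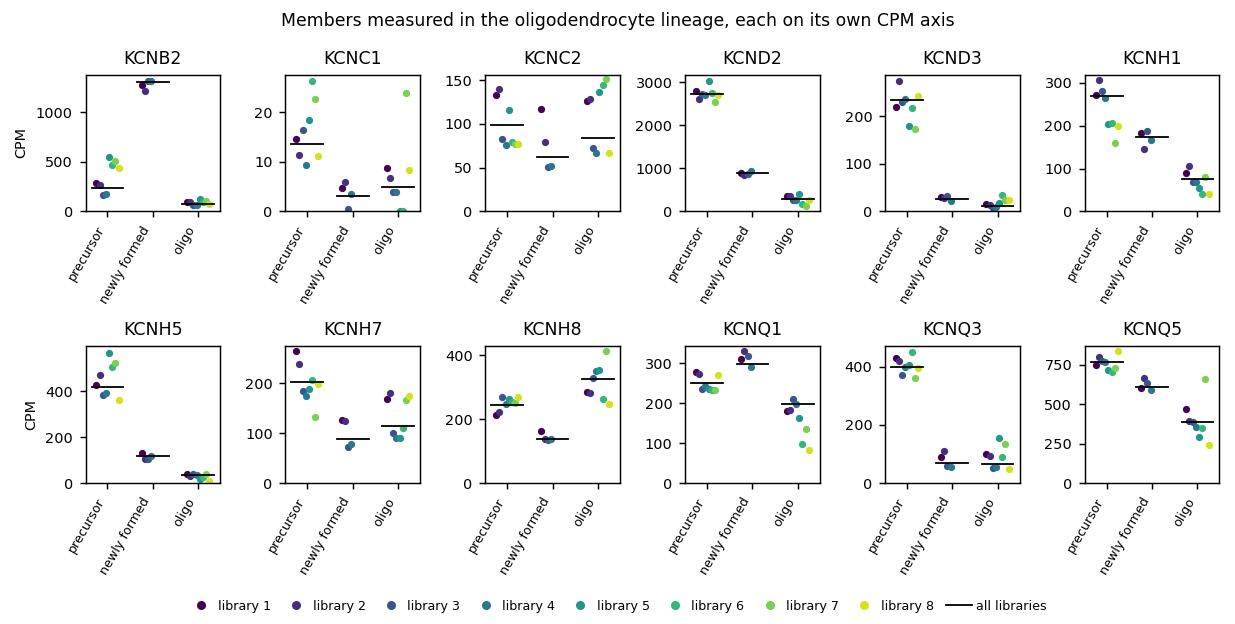
CPM of 12 members measured in precursors or oligodendrocytes, in precursors, newly formed oligodendrocytes and oligodendrocytes (oligo), 1 point per library with at least 50 nuclei and a line for all libraries. Each panel has its own axis from 0. KCND2, KCND3 and KCNH5 step down along the lineage, KCNB2 peaks in the middle and KCNH8 has its lowest level there.

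Genes that work with Kv channels, or share their ion, were read from 4 lists. The auxiliary subunits (13 of 14 listed in the matrix) include the KCNAB beta subunits, and the KCNIP and DPP proteins that bind KCND channels. Among 8 measured, 7 were called neuronal, beside 11.8% of all measured genes, and 1 non-neuronal, beside 18.7%, and the median log2 ratio was 1.42 against -0.22. KCNIP1, the 1 exception, had 78.2 CPM in neurons and 173 CPM in non-neuronal nuclei, 2.21-fold higher in the latter. KCNIP1 was nevertheless 16.1-fold higher in inhibitory than in excitatory neurons (15.5 to 16.7), at 324 and 20.2 CPM, while KCNIP3 (117 and 30.7 CPM) and KCNIP4 (5888 and 2054 CPM) were higher in excitatory neurons. Of 8 measured in the oligodendrocyte lineage, 5 were higher in precursors, beside 12.3% of all measured genes, and 0 in oligodendrocytes, beside 8.59%. DPP6, a partner of KCND2, was 16.3-fold higher in precursors (15.6 to 17.0), at 2338 and 144 CPM, and KCNIP3 12.8-fold (10.7 to 15.3). DPP10 was 3.24-fold higher in LHX6 than in other inhibitory neurons, at 9201 CPM.

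The clustering and anchoring partners, 19 genes, hold channels in place on the axon and at synapses. Among 14 measured, 5 were called neuronal, beside 11.8% of all measured genes, and 2 non-neuronal, beside 18.7%, with a median log2 ratio of 0.49. CNTNAP2, which anchors KCNA channels beside the node of Ranvier, was 6.66-fold higher in neurons (6.59 to 6.73), and CNTN2, which joins it, 7.74-fold higher in non-neuronal nuclei (7.45 to 8.04). In oligodendrocytes CNTN2 had 395 CPM and was 11.2-fold above precursors (10.1 to 12.5), with LGI3 11.0-fold above them (8.59 to 14.4), at 71.3 and 6.47 CPM. ANK3 was 9.91-fold higher in oligodendrocytes than in other non-neuronal nuclei, at 3113 CPM.

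Potassium channels outside the Kv family were spread differently. Of 10 measured calcium- and sodium-activated channel genes (11 listed), 6 were higher in neurons, beside 11.8% of all measured genes, and 2 in non-neuronal nuclei, KCNMB1 and KCNMB3, beside 18.7%. The median log2 ratio was 1.42, and KCNT1 had 28.7 and 2.53 CPM, 11.3-fold higher in neurons. KCNN2, a small-conductance channel, was 11.0-fold higher in pyramidal than in granule neurons (10.4 to 11.7), at 564 and 51.3 CPM. Of 5 measured inward rectifiers (14 of 15 listed in the matrix), KCNJ6 and KCNJ3 were called neuronal, and KCNJ10 and KCNJ2 non-neuronal, with a median log2 ratio of 0.50 and the same shares over all genes, 11.8% and 18.7%. KCNJ10, the glial channel that takes up potassium, was 22.0-fold higher there (20.1 to 24.1). KCNJ2 was 25.7-fold higher in oligodendrocytes than in precursors (21.5 to 30.9), at 317 and 12.3 CPM, the reverse of the 8 Kv members, and KCNJ16 was 41.3-fold higher in precursors (25.5 to 71.6), at 38.5 CPM.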

How the data were processed

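The authors deposited 1 matrix of raw UMI counts, whole numbers for each gene in each nucleus. Per the file headers the software version is 3.1.0, and the submitters' processing notes list CASAVA 1.8, Cell Ranger and Seurat with no role for any. The genome build is not given in the sources used here. Therefore no coordinates are printed, and no Kv sequence was used here. The members, gene lists, markers and comparisons were chosen with earlier results of these data known.

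Nuclei below 500 UMIs or 300 genes were dropped, which left 58220. Doublets were scored within each library against simulated ones among 50 neighbours and removed at 0.8% per 1000 nuclei (219 to 750 per library). After scaling each nucleus to 10000 counts and taking logs, the 2000 most variable genes, without the members and listed genes, gave 30 principal components. A graph of 20 neighbours was clustered with leidenalg 0.10.2 (resolution 1.0, seed 1), without correction between libraries, into 47 clusters. A name needed at least 3 markers over 0.5 of their highest cluster and a score 0.1 above the next type that also had 3. The 3 types of the oligodendrocyte lineage did not count as rivals of one another. Neuron subtypes also needed a score of at least 0.4. The cut-offs for naming were set with the data in view. Clusters with a median doublet score of at least 0.5, or with under 1/3 of their libraries' UMIs and no own marker among 10 leading genes, stayed unnamed.

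UMIs were summed per class (Python 3.11.15, numpy 2.4.6, scipy 1.17.1) and expressed as CPM. Calls needed 2-fold, 10 CPM and 1 direction in every library with 50 nuclei. In counts simulated for granule against pyramidal neurons, all 50 genes were called at each of 2.5-fold, 4-fold and 6-fold. None of 50 at 1.5-fold and 0 of 8641 unchanged genes were called. The simulated libraries varied little and had no gap between libraries 1 to 4 and 5 to 8. Genes away from the 2-fold cut could hardly come out otherwise, so these counts are not the error rate of the calls. Some members are not reported here, though they enter the counts over members. For the others values are named for described members, with fold and interval for up to 4 called members per comparison and direction and up to 2 genes per list. Alternatives were TMM factors (edgeR 4.0.16), equal library weights, each library left out, other resolutions, doublets kept, at least 1000 genes per nucleus, 5% free RNA taken off and other CPM minimums. Libraries 1 to 4 alone, libraries 5 to 8 alone, and pyramidal neurons without clusters 29 and 31 were added after seeing the data.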

Additional observations from a re-analysis of the deposited data

Results flagged for a closer look

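Of 44 sets of library ratios behind the fully described member comparisons, 2 held a library that stood apart from the rest of its set by Dixon's criterion, which chance alone meets in about 1 of 20 sets. The log2 ratio of KCNG3 in immature over granule neurons was -4.06 in library 4 and -2.99 to -2.82 in libraries 1 to 3. Library 4 had 2 KCNG3 UMIs in 281 immature nuclei. The log2 ratio of KCNH8 in astrocytes over the other non-neuronal nuclei was -2.42 in library 5, where the 7 other libraries had -3.46 to -3.11. KCNH8 stood at 20.5 CPM in astrocytes of library 5, inside the range of the other libraries (12.2 to 26.3 CPM). The call held without the library in both cases.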

How the results depend on the processing

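Over 45 member comparisons and 20 settings, 826 of 846 values kept direction and call, 20 kept direction but lost the call, and 0 reversed. The 45 were called members of largest fold, already of 1 direction in every library with enough nuclei. Leaving out a library could therefore hardly reverse them, and dropping the CPM minimum could not remove a call. These counts do not measure how reliable the calls are. The number of members called moved by more than 1.5 times in few cases. Excitatory against inhibitory neurons had 11 calls, 7 with a minimum of 20 CPM and 17 with none. Granule against pyramidal neurons had 4 calls, 7 with no minimum and 7 in libraries 5 to 8 alone (2 higher in granule neurons and 5 in pyramidal), where libraries 1 to 4 alone gave 6 (4 and 2). Leaving out 1 library gave 15 calls throughout for neurons against non-neuronal nuclei, 11 throughout for excitatory against inhibitory, 3 to 5 for granule against pyramidal, 9 to 12 for immature against granule, 8 to 10 in the oligodendrocyte lineage, 21 to 24 for interneuron subtypes and 57 to 62 for glial classes. The described members numbered 25 to 27 in every setting, and 22 to 25 of them kept their class of highest level, with changes in KCNA4, KCNH3, KCNQ1, KCNQ3 and KCNQ5 among others. TMM scaling shifted all log2 ratios by 0.22 for neurons against non-neuronal nuclei, -0.34 for immature against granule neurons, 0.14 for oligodendrocytes against precursors and -0.19 to 0.39 for glial classes. Calls lost only with a minimum of 20 CPM were those of KCNA3 and KCNS3 in inhibitory neurons, KCNC4 in granule neurons, KCNH3 against immature neurons, and KCNS3 in RELN/ADARB2 interneurons and newly formed oligodendrocytes. The cause of the other moves was not tested. No paired analysis was possible because the replicate numbers in the titles are not carried by the barcodes. Sevoflurane against control, planned only if barcodes could be tied to samples, was not run. Depth limits the members near 10 CPM, some of which rest on under 50 UMIs in a class.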

Other observations

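Within 1 class, the library values of some members fell into separate groups. No library has a known group, so the values are given one by one, without a comparison. Of 122 pairs of member and class with at least 50 UMIs in each of 8 libraries, 27 had a gap of at least 1.5-fold between neighbouring library values. The share over all genes was not computed, so such gaps are not read as a trait of the members. The 4 examples were chosen after their values were seen. KCNQ5 in pyramidal neurons had 720, 731, 536, 486, 1787, 1743, 1673 and 1710 CPM in libraries 1 to 8. KCNH3 in the same class had 20.9, 19.7, 15.6, 17.9, 54.9, 52.3, 55.4 and 53.9 CPM. KCNQ1 in LHX6 interneurons had 133, 100.2, 113, 111, 46.5, 45.3, 43.4 and 43.6 CPM. KCNH7 in CCK interneurons split otherwise, with libraries 3 and 4 at 188 and 124 CPM and the other libraries at 387 to 440 CPM.

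Clusters of 1 class also differed. Among pyramidal clusters KCND2 was 3395 CPM in cluster 12 (0.529% of its nuclei from libraries 5 to 8) and 887 to 1277 CPM in the other 5, and KCNQ5 ran from 304 CPM in cluster 12 to 2740 CPM in cluster 13. KCNH5 had 666 CPM in pyramidal cluster 31 and 28.0 to 128 CPM in the other 5. The LHX6 class joined cluster 18, with KCNC2 at 4263 CPM and KCND2 at 1634 CPM, and cluster 39, with 2700 and 211 CPM. Of the unnamed clusters, cluster 36 (451 nuclei, all from libraries 5 to 8) had KCNG3 among its 10 leading genes, at 129 CPM, more than any named class, and cluster 35 (494 nuclei) had KCNH7 at 2144 CPM.

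Across the 19 classes, KCNA3 and KCNC1 had much alike levels (Pearson r 0.89 of log2(CPM + 1)), and KCNG3 and KCNH8 the least alike of the described members (-0.71). The classes share libraries and depth, and these correlations describe 19 points only.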
